A study of Mus musculus with 42 samples.

Results

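The 8 genes described here are Ppara, Ppargc1a, Ehhadh, Acaa1a, Acaa1b, Hsd17b4, Pex11a and Bdh1. They were chosen by name, as genes of peroxisome proliferator-activated receptor alpha (PPAR alpha), of peroxisomal oxidation and of ketogenesis, and are 8 of the 54446 genes in the deposited count table. All 8 were found in the table and all 8 passed the filter on low counts, as did 15574 genes in all. Liver RNA was sequenced in 42 female APOE*3-Leiden mice, a transgenic line that carries a human APOE variant and handles lipoproteins more like humans do than other mice. There were 10 mice on chow, 16 on a Western-type diet (WTD) and 16 on WTD with atorvastatin, all sampled at 32 weeks, with 1 library per mouse. The WTD held 15% cocoa butter, 40.5% sucrose and 1% cholesterol, was started in mice aged 8 to 14 weeks with a run-in of 3 weeks, and was given 0.05% sodium cholate from week 22 in both WTD groups. Atorvastatin, an inhibitor of HMG-CoA reductase, was mixed into the diet at 3.0 mg/kg/day and raised to 4.5 mg/kg/day at week 5. All 42 mice carried the transgene, so no group shows these genes without it. The mouse numbers of the chow group carry the prefix AZ and those of both WTD groups the prefix Gen, so whatever these prefixes mark and the diet cannot be told apart. Whole liver was measured, in which a fall of a hepatocyte gene through fewer hepatocytes and one through less RNA per hepatocyte cannot be told apart.

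In GRCm38, Ppara lies on chromosome 15 from 85734983 to 85802819 and Ppargc1a on chromosome 5 from 51454250 to 51567726. Ehhadh (21761287 to 21787807) and Bdh1 (31422280 to 31458901) are both on chromosome 16, Hsd17b4 is on chromosome 18 (50128201 to 50196269) and Pex11a on chromosome 7 (79735957 to 79743131). The thiolase genes are both on chromosome 9, with Acaa1b from 119148023 to 119157093 on the minus strand and Acaa1a from 119339676 to 119350299 on the plus strand. None of the 8 shares an exon base with another gene on its own strand, whether with its exons or its introns. Acaa1a lies within the span of Slc22a14 on the other strand and shares 290 exon bases with Myd88 there, Acaa1b shares 224 with Dlec1 and Bdh1 533 with Gm15743, each on the other strand. The libraries were strand-specific.

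PPAR alpha is a nuclear receptor that binds fatty acids, pairs with RXR alpha and switches on genes of fatty acid use in hepatocytes, most of all in fasting. Peroxisomes shorten very-long-chain fatty acids, dicarboxylic acids and bile acid precursors in a cycle of oxidation, hydration, dehydrogenation and thiolytic cleavage, while mitochondria make ketone bodies from acetyl-CoA. PPARGC1A (PGC-1 alpha) is a coactivator of PPAR alpha, EHHADH and HSD17B4 are the peroxisomal enzymes that each carry out hydration and dehydrogenation, ACAA1A and ACAA1B are the thiolases of the last step, PEX11A takes part in the division of peroxisomes, and BDH1 interconverts acetoacetate and beta-hydroxybutyrate.

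The thiolases are the members that reads could confuse. Their coding sequences in GENCODE vM21 are 1275 bases each and differ at 44 bases (96.5% identity), and the longest stretch without a difference is 327 bases. Of the 1613 windows of 150 bases in the Acaa1a transcript, the length of 1 read, 205 also occur in the Acaa1b transcript. A read pair wholly inside such windows matches both genes. The first 150 coding bases, shown here to let the genes be compared as a read would see them, differ at 6 bases, which are in capitals.
Acaa1a: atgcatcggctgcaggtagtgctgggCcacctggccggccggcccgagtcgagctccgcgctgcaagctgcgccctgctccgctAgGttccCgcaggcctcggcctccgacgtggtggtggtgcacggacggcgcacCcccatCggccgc
Acaa1b: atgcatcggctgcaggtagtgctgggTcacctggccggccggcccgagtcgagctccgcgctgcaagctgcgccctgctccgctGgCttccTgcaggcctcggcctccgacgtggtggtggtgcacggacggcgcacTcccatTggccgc
These stretches are at chr9:119341515-119341664 on the plus strand and chr9:119156845-119156994 on the minus strand, and each is 1 exon.

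RefSeq promoter windows of GRCm38.p6, 250 bases before and 50 after the start of transcription, were at hand for 7 of the 8 members, with 2 for Bdh1. The windows of the thiolase genes and of Ehhadh are printed because these 3 are the member windows, of 8, that hold the letters CCAAT on either strand, which are in capitals, and because Ehhadh and Acaa1b varied together most closely among mice. CCAAT is in 37.4% of all 32841 windows.
Ehhadh: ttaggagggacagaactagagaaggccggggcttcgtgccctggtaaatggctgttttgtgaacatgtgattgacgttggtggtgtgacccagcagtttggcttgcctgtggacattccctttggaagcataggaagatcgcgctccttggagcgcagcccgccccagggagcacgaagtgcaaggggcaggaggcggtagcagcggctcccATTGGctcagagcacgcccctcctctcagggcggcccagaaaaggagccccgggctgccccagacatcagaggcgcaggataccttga
Acaa1a: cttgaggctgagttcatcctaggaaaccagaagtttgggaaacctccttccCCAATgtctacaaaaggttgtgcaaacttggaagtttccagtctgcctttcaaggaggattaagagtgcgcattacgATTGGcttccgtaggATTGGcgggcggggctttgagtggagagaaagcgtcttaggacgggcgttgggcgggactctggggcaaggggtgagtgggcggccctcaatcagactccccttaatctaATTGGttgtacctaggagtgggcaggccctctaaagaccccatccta
Acaa1b: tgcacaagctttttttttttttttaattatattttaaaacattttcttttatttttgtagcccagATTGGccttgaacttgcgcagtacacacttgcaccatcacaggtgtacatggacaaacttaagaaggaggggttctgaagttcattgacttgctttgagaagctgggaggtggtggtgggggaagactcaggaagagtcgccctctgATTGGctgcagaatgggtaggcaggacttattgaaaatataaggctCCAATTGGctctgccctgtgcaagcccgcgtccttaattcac
The windows are chr16:21787785-21788084 (minus), chr9:119341044-119341343 (plus) and chr9:119157044-119157343 (minus). AGGTCA, the half-site of nuclear receptors such as PPAR alpha, was searched on both strands and is in 0 of the 8 member windows and in 16.3% of all windows, and shares no letters with the motif above as it has no match in these windows. The TATA box letters, TATAAA, likewise searched on both strands, are in 0 of the 8 and in 13.6% of all. The number of CpG runs from 4 in Acaa1b to 30 in Ppara, with 10 in Acaa1a and a median of 7 over all windows. These are letters in a short window and not binding sites.

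Levels are given as CPM, the count of a gene scaled to a common library total after TMM, and mice are numbered within their group. The totals over genes ranged from 15661381 to 36224054. The lowest count of a member in any mouse was 66, for Ppargc1a, and all other members had at least 501. In 9 libraries (3 on chow, 5 on WTD, 1 on WTD with atorvastatin) over 20% of the genes at 1 to 2 CPM had no count. Per kilobase of exon, the order of the members by median in chow was Acaa1b (936 CPM per kb), Hsd17b4 (146), Ehhadh (143), Bdh1 (95.0), Acaa1a (73.5), Ppara (41.0), Pex11a (20.7) and Ppargc1a (1.14). The length counts the exons of all annotated transcripts of a gene. For Acaa1a that is 4414 bases, against 1762 in the transcript compared above, so its place in this order depends on the length used. The ranges of Hsd17b4 (131 to 178) and Ehhadh (104 to 199) overlapped throughout, and those of Ehhadh and Bdh1 and of Bdh1 and Acaa1a in part. Acaa1b was above every other member in all mice on chow, with 472 CPM per kb in its lowest mouse. On WTD the median of Ehhadh (145) stood above that of Hsd17b4, with ranges that overlapped (93.4 to 256 and 76.6 to 139), and with atorvastatin the medians were 170 and 120.

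WTD was compared with chow to see what the diet did to these genes. The receptor and part of the peroxisomal pathway were lower on WTD. Ppara, Acaa1a, Hsd17b4 and Pex11a fell to between 0.649-fold and 0.704-fold, whereas Ehhadh, Ppargc1a, Acaa1b and Bdh1 did not pass the test. Calls are adjusted p under 0.01 in the quasi-likelihood test of edgeR, adjusted over all 15574 genes, of which 33.5% were called, 16.0% lower and 17.5% higher. Of the 8 members 4 were called, all 4 lower, with a median log2 difference of -0.40 over the 8 against 0.03 over all genes. The fall is relative to all genes. The 17 tested hepatocyte markers were all called lower as well, with a median of -0.82, and their summed level was 131033 to 179740 CPM on chow against 60042 to 122860 CPM on WTD. Scaled to those markers instead, which moved the median of all genes to 0.83, the 4 called members stood above chow, at 0.16 for Ppara, 0.20 for Acaa1a, 0.28 for Hsd17b4 and 0.26 for Pex11a. Hsd17b4, Ehhadh (0.83), Acaa1b (0.47) and Bdh1 (0.59) were then called higher, and the split over all genes went from 2729 higher and 2495 lower to 9816 and 332. In the same livers 10 of 12 macrophage markers, 6 of 11 stellate cell and fibroblast markers and 6 of 6 cholangiocyte markers were called higher. The summed macrophage markers ran from 433 to 741 CPM on chow and from 1939 to 3796 CPM on WTD. The part of these cell types in the members' values was not tested.

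**Figure D1:**
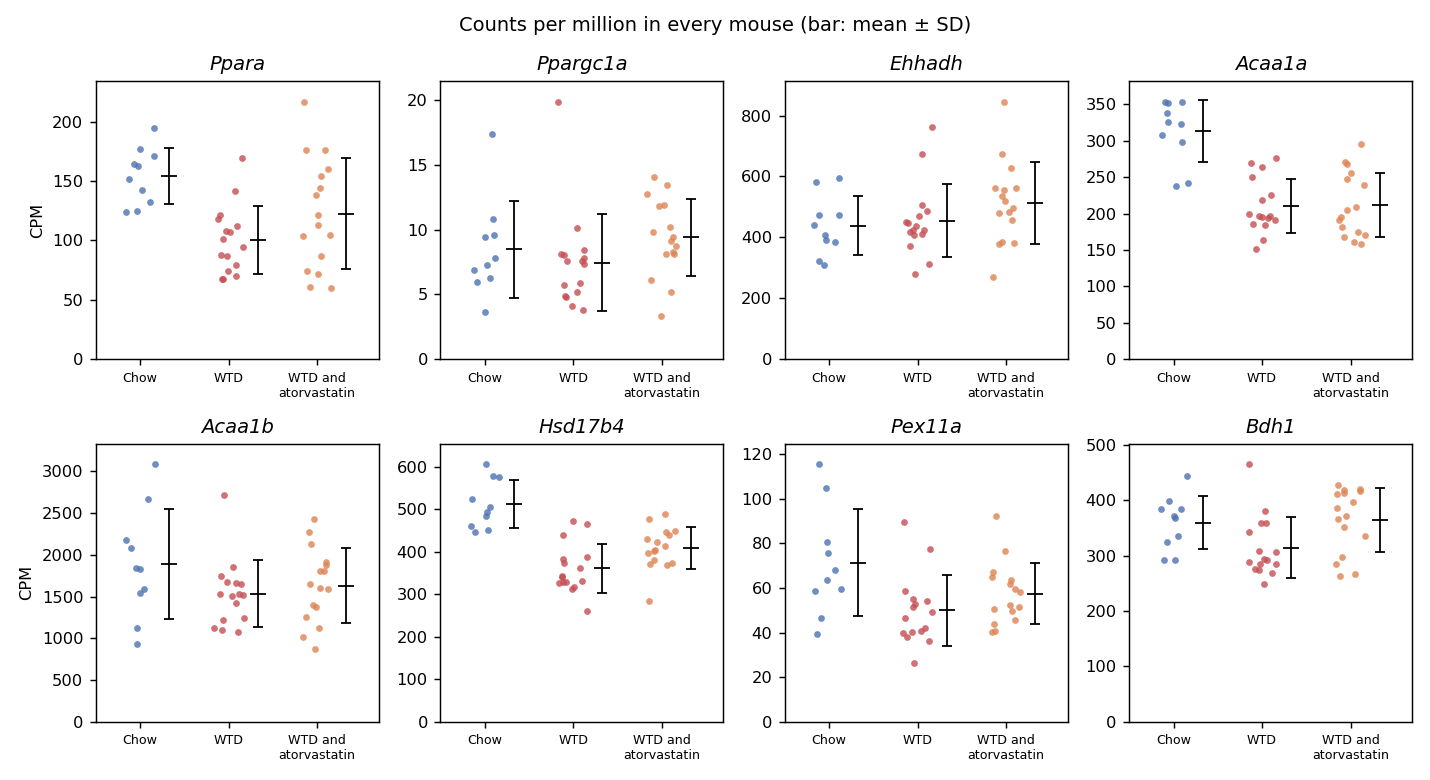
CPM of each member (vertical axis, starting at 0) in every mouse, with 1 point per mouse in the 10 chow, 16 WTD and 16 WTD and atorvastatin mice, and the mean ± SD as a bar beside the points. Acaa1a and Hsd17b4 were below the chow median in all 16 WTD mice. Ehhadh overlapped widely between the groups, with 2 WTD mice and 3 atorvastatin-treated mice above the highest chow mouse. With scaling to hepatocyte markers Ppara, Acaa1a, Hsd17b4 and Pex11a were at log2 differences of 0.16, 0.20, 0.28 and 0.26 on WTD. Of these only Hsd17b4 was called, and the median of all genes was then 0.83.

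Ppara, the receptor itself, ranged from 124 to 194 CPM on chow (median 157), from 67.3 to 170 CPM on WTD (median 97.9) and from 60.1 to 217 CPM with atorvastatin (median 117). Of the 16 WTD mice 14 were below the lowest chow mouse, while 1 WTD mouse was above the chow median. The log2 difference of WTD from chow was -0.62 ± 0.17 (SE, adjusted p = 0.00269). The spread was widest with atorvastatin, where the SD was 46.6 CPM against 23.6 CPM on chow. Ppargc1a, its coactivator, was the weakest member, at 3.64 to 17.4 CPM on chow (median 7.54), 3.82 to 19.9 CPM on WTD (median 7.45) and 3.31 to 14.1 CPM with atorvastatin (median 9.25). The groups overlapped over nearly their whole range. The difference on WTD of -0.19 had a 95% interval from -0.65 to 0.27, so that neither a fall as deep as that of Ppara nor a small rise can be told from these mice.

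The pair of enzymes with the same double role differed. Hsd17b4, which handles very-long-chain and branched acids and bile acid precursors, was at 446 to 605 CPM on chow (median 499) and 261 to 473 CPM on WTD (median 342). All 16 WTD mice were under the chow median and 14 were under the lowest chow mouse, with a log2 difference of -0.51 ± 0.08 (SE, adjusted p = 4.75e-07). Ehhadh, which is known for dicarboxylic acids and as a target of PPAR alpha, was at 310 to 594 CPM on chow (median 425) and 278 to 764 CPM on WTD (median 431). Of the WTD mice 7 were below and 9 above the chow median. The log2 difference was 0.06, with an interval from -0.22 to 0.33.

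The thiolases were both lower on average, and 1 of them was called. Acaa1a ranged from 237 to 354 CPM on chow (median 324) and from 152 to 276 CPM on WTD (median 197). All 16 WTD mice were below the chow median, 12 of them below the lowest chow mouse, and the log2 difference was -0.58 ± 0.10 (SE, adjusted p = 3.22e-06). Acaa1b had more counts and more spread, at 926 to 3084 CPM on chow (median 1837) and 1069 to 2721 CPM on WTD (median 1520). Although 14 of the 16 WTD mice were below the chow median, none was below the lowest chow mouse. Its log2 difference of -0.30 (interval -0.62 to 0.03, adjusted p = 0.132) did not pass, and the intervals of the thiolases overlap.

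Pex11a ranged from 39.4 to 115 CPM on chow (median 65.9) and from 26.2 to 89.7 CPM on WTD (median 47.7). The groups overlapped widely, with 3 WTD mice below the lowest chow mouse, and the log2 difference was -0.51 ± 0.16 (SE, adjusted p = 0.00655). This call was the least secure of the 4. It was lost without chow mouse 1, 3, 4 or 9 or WTD mouse 1, 2, 7, 9, 10, 12 or 16, with adjusted p from edgeR between 0.0101 and 0.0286. It was also lost without the filter (0.0121) and with only the mice of both groups in the fit (0.0185). Bdh1 was at 292 to 443 CPM on chow (median 369) and 248 to 465 CPM on WTD (median 293). Of the WTD mice 14 were below the chow median and 7 below the lowest chow mouse, but 1, WTD mouse 15, was above every chow mouse. The log2 difference was -0.19 (interval -0.37 to -0.01, adjusted p = 0.0788). WTD mouse 15 also had the highest Ppara, Ehhadh, Acaa1a and Acaa1b of the WTD group. Its library was among the 9 in which over 20% of the genes at 1 to 2 CPM had no count (21.9%).

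Atorvastatin was compared with WTD alone to see whether the statin moved these genes. Of the 8 members 0 were called by edgeR, where 7.10% of all genes were called, 4.84% higher. The count at an unadjusted p under 0.05 was 2 (Hsd17b4 and Bdh1), DESeq2 called 0 and limma-voom with sample quality weights called 2, again Hsd17b4 and Bdh1. Over all genes limma-voom called 3118 of 15574, 1819 higher and 1299 lower, and DESeq2 1400 of 13310. The share of all genes under an unadjusted p of 0.05 was not computed. All 8 log2 differences were above 0, from 0.01 for Acaa1a to 0.34 for Ppargc1a, with a median of 0.19 against 0.00 over all genes. With scaling to the hepatocyte markers all 8 were below 0, and Acaa1a then stood at -0.34 (adjusted p = 0.00143 in edgeR) and was called. Over all genes 754 were called higher and 352 lower, against 582 and 479 with RLE scaling and 119 and 3550 with hepatocyte marker scaling, which moved the median of all genes to -0.34. Of the 17 hepatocyte markers 12 were called higher and 0 lower, with a summed level of 76527 to 145557 CPM, and of 12 macrophage markers 7 were called lower and 1 higher. The part of this in the members' values was not tested.

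Hsd17b4 ranged from 285 to 488 CPM with atorvastatin (median 409), and 15 of the 16 mice were above the WTD median. The log2 difference was 0.18 (interval 0.04 to 0.32, p = 0.0129 and adjusted p = 0.0812 in edgeR). Bdh1 ranged from 264 to 427 CPM (median 379), with 13 of 16 mice above the WTD median, and the difference was 0.21 (interval 0.05 to 0.37, p = 0.00999 and adjusted p = 0.0684 in edgeR). Without WTD mouse 15 it was 0.26 and passed, with an adjusted p of 0.0096. For Ppara the difference was 0.29 (interval -0.02 to 0.60, adjusted p = 0.241), with 11 of 16 mice above the WTD median, 3 above the highest WTD mouse and 2 below the lowest. The levels of the other members with atorvastatin were 269 to 846 CPM for Ehhadh (median 508), 870 to 2429 CPM for Acaa1b (median 1623), 158 to 295 CPM for Acaa1a (median 200) and 40.2 to 92.0 CPM for Pex11a (median 55.3). Their intervals all held 0, at -0.07 to 0.42 for Ehhadh, -0.20 to 0.37 for Acaa1b, -0.17 to 0.19 for Acaa1a and -0.08 to 0.48 for Pex11a. A rise of more than 0.19 is outside the interval of Acaa1a, whereas those of Ppara, Ppargc1a (-0.07 to 0.74) and Pex11a leave room for a larger one.

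**Figure D2:**
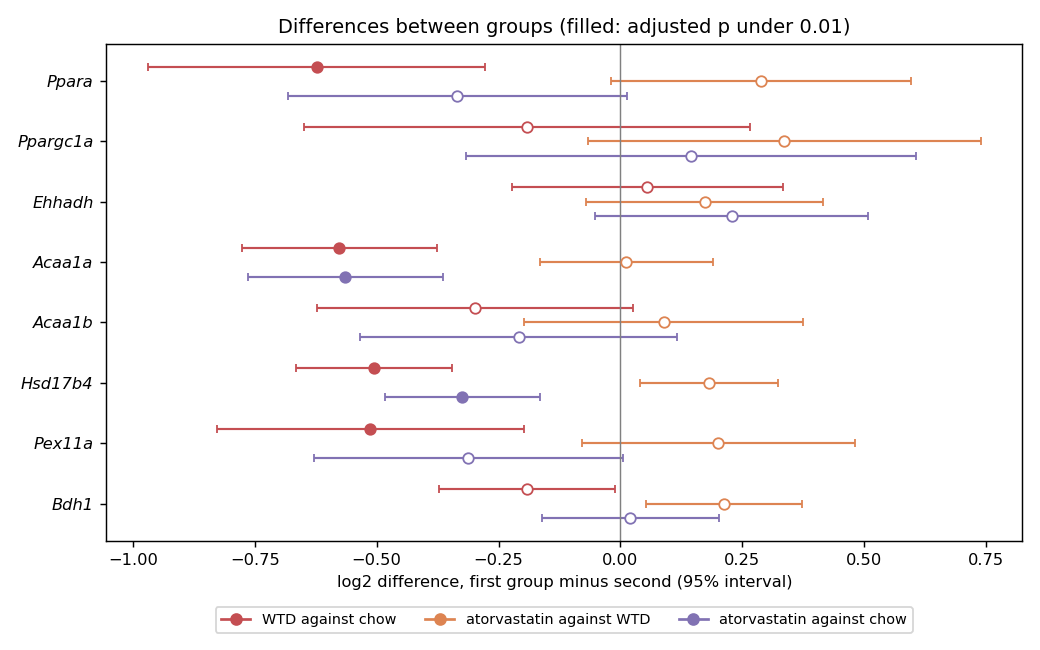
Log2 difference of each member (horizontal axis, 95% interval as a line) in the 3 comparisons, with filled points for adjusted p under 0.01 in edgeR. Ppara, Acaa1a, Hsd17b4 and Pex11a are filled below 0 against chow on WTD, Acaa1a and Hsd17b4 also with atorvastatin, and no point is filled for atorvastatin against WTD; scaling to hepatocyte markers placed all of these but Acaa1a with atorvastatin above 0.

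Atorvastatin-treated mice were also set against chow. Of the 8 members 2 were called, both lower, where 25.0% of all genes were called and 10.7% lower. Acaa1a was at -0.56 ± 0.10 (SE, adjusted p = 8.28e-06), below the chow median in 16 of 16 mice. Hsd17b4 was at -0.32 ± 0.08 (SE, adjusted p = 0.000963), again below the chow median in 16 of 16. With hepatocyte marker scaling the difference was -0.13 for Acaa1a and 0.12 for Hsd17b4, neither called, while Ehhadh (0.64, adjusted p = 4.88e-06 in edgeR) and Bdh1 (0.45, adjusted p = 2.43e-06 in edgeR) were called higher, and the median of all genes moved to 0.50, with 6425 genes higher and 296 lower. Ppara (-0.33, interval -0.68 to 0.01) and Pex11a (-0.31, interval -0.63 to 0.00) did not pass, and Bdh1 was at 0.02 (interval -0.16 to 0.20). Each group enters 2 of the 3 comparisons, so the comparisons share mice.

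The Acaa1b share of the counts of both thiolases, which needs no scaling between libraries, was 84.9% ± 3.08 (SD, n = 10) on chow, 87.6% ± 2.60 (SD, n = 16) on WTD and 88.2% ± 1.76 (SD, n = 16) with atorvastatin. It ran from 79.6% to 89.7%, from 81.9% to 91.0% and from 84.7% to 90.8%, so that the groups overlapped. A 2-sided permutation test with 100000 permutations, adjusted over 3 comparisons, gave 0.0376 for WTD against chow, 0.452 for atorvastatin against WTD and 0.00513 for atorvastatin against chow. The last rose by 3.32 percentage points and passed 0.01, but not without any 1 of chow mice 4, 5, 6, 7 or 8, where it was 2.72 to 3.21 points with adjusted p of 0.0104 to 0.0159. Without the 9 libraries that lacked weak genes, WTD against chow was 2.95 points (adjusted p = 0.00937).

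**Figure D3:**
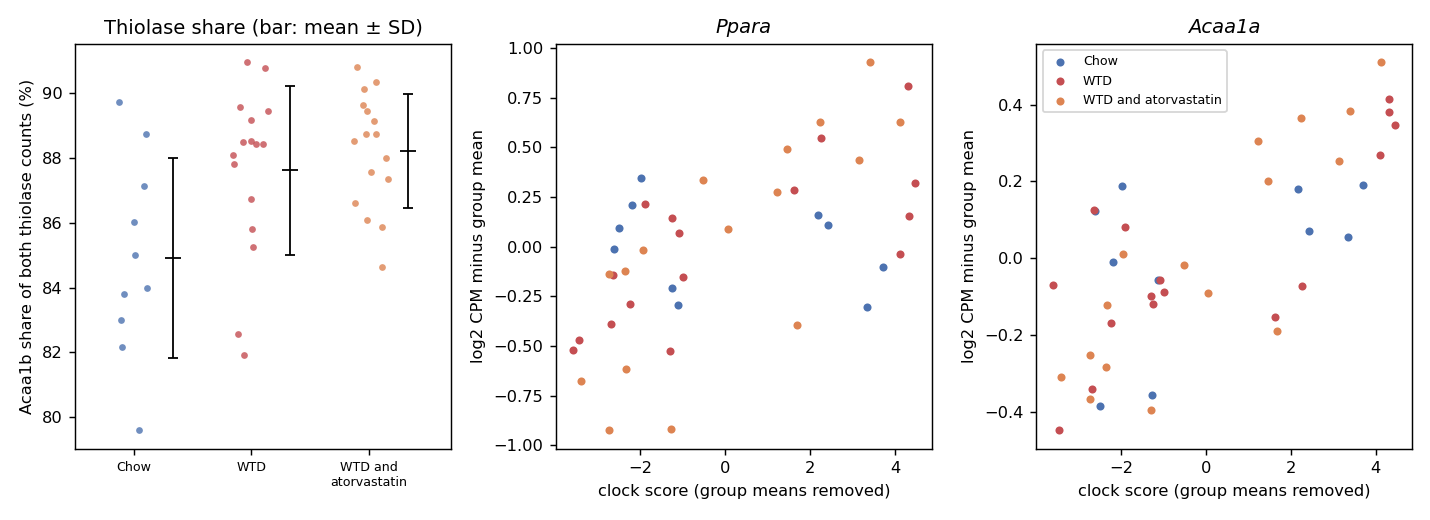
Left, Acaa1b share of both thiolase counts in percent (axis not from 0) in every mouse of the 3 groups with mean ± SD. Middle and right, log2 CPM of Ppara and Acaa1a minus their group mean against the clock score, with 1 point per mouse coloured by group; 25 mice have scores up to 0.06 and 17 have scores from 1.22.

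Other genes of these pathways were counted from lists of known genes. Of 27 tested genes of peroxisomal oxidation, WTD had 16 called lower and 3 higher (median log2 difference -0.59), but 4 lower and 11 higher with hepatocyte marker scaling. Phyh, which starts the breakdown of phytanic acid, went from 1438 ± 64.8 CPM on chow (SD) to 685 ± 133 CPM (log2 difference -1.07). Ech1, a dienoyl-CoA isomerase, went from 466 ± 83.6 to 232 ± 24.8 CPM, Pecr, a trans-2-enoyl-CoA reductase, was at -1.21 and Nudt7, a CoA diphosphatase of peroxisomes, at -1.12. All 4 were called lower, and Ech1 (-0.20) and Nudt7 (-0.36) missed the threshold with hepatocyte scaling. With atorvastatin 7 of the 27 were called higher and 0 lower, with a median of 0.26, against 13 higher with limma-voom and 4 with RLE scaling or with only the groups compared. Over all 15574 genes limma-voom called 1819 higher. Nudt7 rose from 90.7 ± 32.5 to 170 ± 58.4 CPM (log2 difference 0.90), Pecr by 0.52 and Phyh by 0.29, while Ech1 (0.09) did not pass. With hepatocyte scaling 1 of the 27 was called higher and 3 lower, with Phyh at -0.06. Phyh also missed the threshold in edgeR with RLE scaling (adjusted p = 0.0151) and with only the groups compared (0.0142).

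Of 15 tested peroxins and peroxisomal membrane proteins, 7 were called lower and 0 higher on WTD (0 lower and 10 higher with hepatocyte scaling), with a median of -0.31. Pxmp4, a membrane protein, was at -1.01, Pex16, which helps insert membrane proteins, at -0.97 and Pex11g, a paralog of Pex11a, at -0.80. With atorvastatin 4 were called higher and 0 lower (0 and 1 with hepatocyte scaling, 10 and 0 with limma-voom, 2 and 0 with RLE scaling), among them Pex16 (0.47) and Pex11g (0.35), while Pxmp4 (0.30, adjusted p = 0.0227 in edgeR) did not pass. Pex6 was listed at 0 in every mouse and was not tested. Of 16 other peroxisomal enzymes, 11 were called lower and 1 higher (4 lower and 6 higher with hepatocyte scaling), with a median of -0.63. Cat, catalase, went from 2499 ± 139 CPM (SD) on chow to 1504 ± 375 CPM on WTD and 2196 ± 341 CPM with atorvastatin, at -0.73 against chow and 0.55 against WTD, both called. Agxt, which detoxifies glyoxylate, fell by 1.66 on the log2 scale and rose by 0.48, Pipox, which oxidises pipecolic acid, was at -1.04 and 0.53, and Baat, which joins bile acids to amino acids, at -0.97 and 0.28. In all, 6 of the 16 were called higher with atorvastatin and 0 lower (11 and 1 with limma-voom, 2 and 3 with hepatocyte scaling, where Baat was at -0.07).

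Of 10 genes of ketone body metabolism, 6 were called lower and 1 higher on WTD (1 lower and 6 higher with hepatocyte scaling), with a median of -0.39. Aacs, which uses acetoacetate for lipid synthesis in the cytosol, was at -1.23 and called. With atorvastatin 1 of the 10 was called (1 higher and 2 lower with hepatocyte scaling, 4 and 1 with limma-voom), Aacs, which rose by 1.21 from 35.3 ± 23.8 to 82.0 ± 39.1 CPM but missed the threshold without the 9 libraries that lacked weak genes (adjusted p = 0.0181 in edgeR). Of 31 other known PPAR alpha targets, 19 were called lower and 2 higher on WTD (4 lower and 13 higher with hepatocyte scaling), with a median of -0.59. Cyp4a14, an omega-hydroxylase, had the deepest fall of the named genes, from 1089 ± 565 to 296 ± 141 CPM (-1.88), and was at 316 ± 134 CPM with atorvastatin. Acsl1, which activates long-chain fatty acids, went from 828 ± 122 to 413 ± 149 CPM and rose by 0.49 with atorvastatin, the only 1 of the 31 called (0 higher and 8 lower with hepatocyte scaling, 10 higher and 1 lower with limma-voom, 0 higher and 1 lower with RLE scaling). That call was lost in edgeR with RLE scaling (adjusted p = 0.0142), upper-quartile scaling (0.0114), no filter (0.0129) and only the groups compared (0.0166). It was also lost with the share of weak genes as a covariate (0.0172) and with hepatocyte scaling (0.25). Acadm, the medium-chain dehydrogenase of mitochondria, was at -0.62 and called. Cpt1a, which lets fatty acids into mitochondria, was at 0.16 and did not pass, and Ucp2, a mitochondrial carrier, rose by 1.57. Fgf21, a fasting hormone, was weak, at 4.01 CPM on chow and 9.14 CPM on WTD on average. Its difference of 1.19 did not pass in edgeR (adjusted p = 0.0236). It passed as higher with DESeq2 (1.24, adjusted p = 0.00701), limma-voom (1.73, 0.0088) and, in edgeR, hepatocyte scaling (2.04, 0.000251). With atorvastatin against WTD Ucp2 was at -0.34 (adjusted p = 0.0186 in edgeR) and did not pass, but it passed as lower with DESeq2 (adjusted p = 0.00469), limma-voom (0.000203) and RLE scaling (0.00932).

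Of 32 partners and coregulators of the receptor, 4 were called lower and 3 higher on WTD, with a median of -0.10 (1 lower and 28 higher with hepatocyte scaling). Rxra, the partner of PPAR alpha, was at -0.36 and called lower (0.42 with hepatocyte scaling), Esrrg, an orphan receptor that PGC-1 alpha also coactivates, at -1.31, and Pparg, the fat cell paralog of Ppara, rose by 0.65. With atorvastatin 1 was called higher, Lpin1, a phosphatidate phosphatase that also acts as a coactivator (0.70), with 0 higher and 6 lower under hepatocyte scaling and 5 and 2 with limma-voom. The Lpin1 call was lost without the 9 libraries that lacked weak genes (adjusted p = 0.0138 in edgeR). Rxra was at 0.26 with atorvastatin against WTD (adjusted p = 0.0142 in edgeR) and did not pass. It passed as higher with limma-voom (adjusted p = 2.61e-06), and in edgeR without the 9 libraries (0.000176) and with the clock score as a covariate (0.00131). With hepatocyte scaling it was at -0.067. Against chow, atorvastatin-treated mice had 9 of 27, 5 of 15, 7 of 16, 4 of 10, 15 of 31 and 1 of 32 genes of these 6 lists called lower, and 4, 0, 0, 1, 2 and 3 called higher. With hepatocyte scaling the counts were 4, 0, 3, 0, 6 and 1 lower and 8, 5, 7, 1, 8 and 18 higher.

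**Figure D4:**
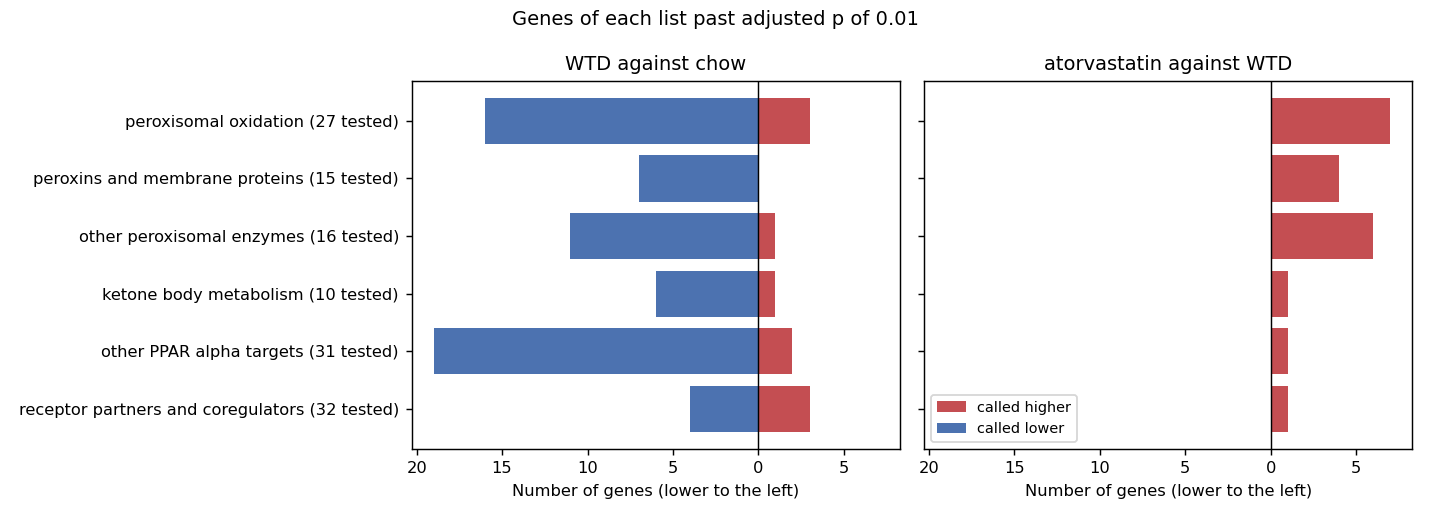
Number of genes called in each list (horizontal axis, lower to the left and higher to the right) for WTD against chow and atorvastatin against WTD, with the number tested in brackets. On WTD the blue bars for genes called lower reach 16 of 27 in peroxisomal oxidation and 19 of 31 in PPAR alpha targets, against 4 in each with hepatocyte marker scaling, and with atorvastatin no gene of these lists was called lower, against 1 to 8 per list with that scaling.

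Within groups the members varied together from mouse to mouse. After group means were removed, 19 of 28 pairs were past the threshold (adjusted p under 0.01 for both Pearson's r and Spearman's rho, permuting within groups), all 19 with a positive r and with the same sign in each of the 3 groups. The closest pair was Ehhadh and Acaa1b, with r = 0.82 and rho = 0.81 over 42 mice and r of 0.85, 0.70 and 0.93 within chow, WTD and atorvastatin. Its adjusted p of 3.5e-05 came from 1e-05, the smallest that 100000 permutations can give. Bdh1 was related to Ehhadh (r = 0.75), Acaa1b (0.74), Ppara (0.73) and Acaa1a (0.71), Ehhadh to Hsd17b4 (0.71) and Hsd17b4 to Pex11a (0.70). Without the 2 mice farthest from the median, these were 0.76 for Ehhadh and Acaa1b and 0.67 for Ehhadh and Bdh1. Ppara was past the threshold with Ehhadh, Acaa1a, Acaa1b and Bdh1, but not with Hsd17b4 (r = 0.26, rho = 0.27) or Pex11a (r = 0.29, rho = 0.29). Ppargc1a had no pair past the threshold. Its r with Ppara was -0.24 in chow, 0.06 in WTD and 0.76 with atorvastatin, and the difference between groups was not tested. All members of a mouse share 1 library and 1 scaling factor. How many pairs of other genes pass the same threshold was not tested. With RLE scaling 17 of the 19 pairs were past the threshold, and no others.

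**Figure D5:**
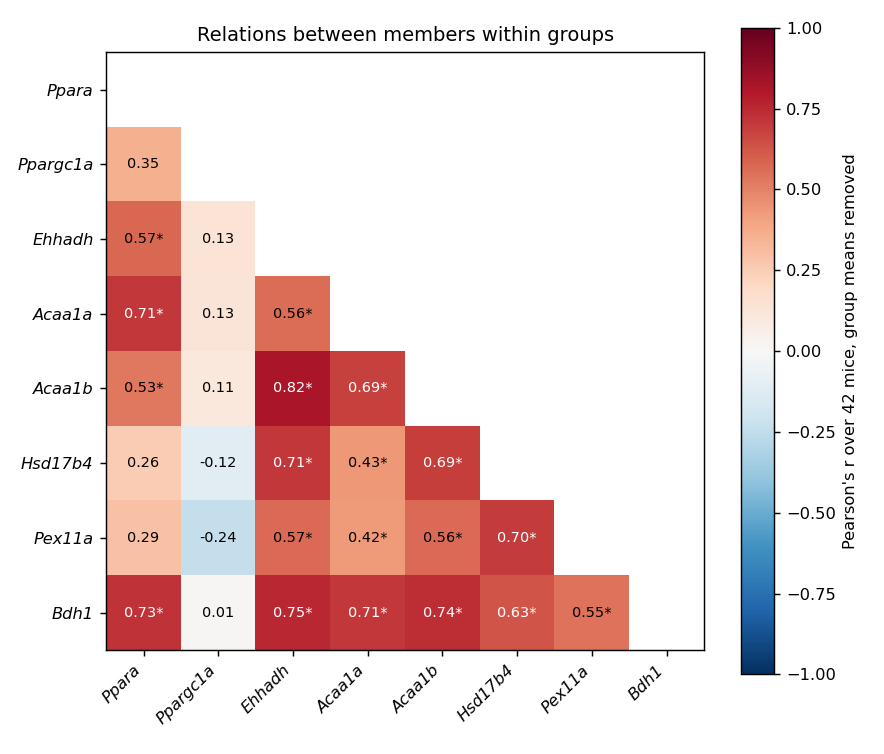
Pearson's r for each pair of members over 42 mice after removing group means (colour scale from -1 to 1), with a star where r and rho both had an adjusted p under 0.01. The 19 starred pairs run from 0.42 to 0.82, and the Ppargc1a pairs, from -0.24 to 0.35, carry no star.

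Marker genes varied with some members too. Over 48 relations of the 8 members with 6 measures of a library, those of Bdh1 with the mean hepatocyte marker level (r = 0.64, adjusted p = 0.0008; rho = 0.51, adjusted p = 0.00936, permutation within groups), of Bdh1 with stellate cell and fibroblast markers (r = -0.65 and rho = -0.61, adjusted p = 0.00048 and 0.00144) and of Acaa1a with the latter (r = -0.56 and rho = -0.58, adjusted p = 0.000864 and 0.00156) passed on both measures among the cell type markers. The hepatocyte relation did not hold in chow, where r for Bdh1 was -0.71, against 0.82 in WTD and 0.81 with atorvastatin. The stellate relation was -0.56, -0.69 and -0.71 in the 3 groups. Without the 2 mice farthest from the median the 3 values were 0.53, -0.55 and -0.52. No member was related to the total count or to the share of weak genes without a count on both measures.

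Clock genes also differed among mice of the same group. The time of day at which each mouse was sampled is not given in the sources used here, nor is the age of the chow mice at the start. A score of 13 clock genes (first principal component, 54.0% of their variance, group means removed) fell, as seen once it had been computed, into 25 mice with scores from -3.59 to 0.06 and 17 with scores from 1.22 to 4.46, with 4 of 10 chow, 6 of 16 WTD and 7 of 16 atorvastatin-treated mice in the higher set. Ppara was on average 0.29 above its group mean (log2) in the higher set and 0.20 below it in the lower, and Acaa1a 0.21 above and 0.14 below. Over all 42 mice, in a permutation test within groups, the score was related to Ppara (r = 0.60, adjusted p = 0.00084), Acaa1a (r = 0.74, adjusted p = 0.00048) and Bdh1 (r = 0.53, adjusted p = 0.00278). For rho the adjusted p was 0.00156, 0.00048 and 0.00624. By group, r for Ppara was -0.30 in chow, 0.73 in WTD and 0.78 with atorvastatin. Within the sets, where the score spans less, the relation was not shown. For Ppara r was 0.39 (permutation p = 0.0642; rho = 0.42, p = 0.0403) in the lower and 0.11 (p = 0.625; rho = 0.09, p = 0.676) in the higher, and for Acaa1a 0.25 (p = 0.201; rho = 0.29, p = 0.134) and 0.59 (p = 0.0103; rho = 0.58, p = 0.00822), and none of the 16 relations had an adjusted p under 0.127. With the score as a covariate the 4 calls on WTD stayed, at -0.68 for Ppara, -0.59 for Acaa1a, -0.51 for Hsd17b4 and -0.52 for Pex11a. Because group means were removed from the score, this covariate could not take up a clock difference between the groups. Of the 13 clock genes 2 were called higher and 2 lower on WTD, where 33.5% of all genes were called. The part of the clock in the group differences was not tested.

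The genes whose pattern was most like a member's, by r over 42 mice without group means, are given for each member. For Ehhadh these included Hadh (0.84) and Acadl (0.83), for Acaa1b Hadh (0.84), Ephx2 (0.84) and Ehhadh (0.82), and for Bdh1 Aldh3a2 (0.84). Hsd17b4 was most like Lonp2 (0.87), the protease of peroxisomes, then Mgll (0.83) and Vwa8 (0.79). Pex11a was most like Plin2 (0.79), a coat protein of lipid droplets, then Pctp (0.75) and Tbx3 (0.73). Ppara was most like Hykk (0.84), Cyp2e1 (0.83) and Slc27a2 (0.83), and Acaa1a most like Por (0.82), Oplah (0.78) and Eci2 (0.78). The values for Ppargc1a were lower, with A130010J15Rik (0.63) and Rbfox1 (0.59) among them. They describe these libraries and carry no test.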

How the data were processed

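Liver RNA of 42 mice was sequenced as strand-specific libraries. Per the labels and methods, the authors aligned read pairs of 150 bases to GRCm38 with STAR and assigned them to genes of GENCODE release 19 with HTSeq 0.6.1p1, and they deposited the counts without normalization or filtering. The joint table was identical to the 42 single tables. HTSeq summary lines, among them 4.68% not uniquely aligned pairs on average, stayed out of totals and tests. Names, positions and exon lengths came from GENCODE vM21, which holds 54409 of the 54446 identifiers.

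The function filterByExpr, with minimum counts of 10 and 15 in all, selected genes. A single model in edgeR 4.0.16 (R 4.3.3) held all 42 mice without covariates, with TMM factors, robust dispersions and quasi-likelihood F tests. Adjusted p is Benjamini-Hochberg over 15574 genes, with calls under 0.01. SEs and 95% intervals follow from the F statistics. CPM per kb uses the summed length of all annotated exons of a gene, with overlapping exons merged. Mice are the replicates, and group differences were tested against the spread between mice. The mice were group-housed and the labels give no cage, so cage was not in the model. Relations used 100000 permutations within groups.

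The members, the gene lists, the tests and the alternatives were chosen with earlier results of these data known. Named are the 8 members, fixed genes (among them Cat, Cpt1a, Cyp4a14, Fgf21 and Rxra), the 2 genes of each list with the smallest p on WTD and with atorvastatin, and the 3 genes most like each member. Some genes that this rule names are not reported here. Alternatives were DESeq2 1.42.0, limma-voom (limma 3.58.1) with sample quality weights, RLE, upper-quartile and hepatocyte marker scaling, TMM without the 20 most abundant genes, a minimum of 10 counts in each mouse, no filter, dispersions without robust estimation, only the groups compared, adjusted p under 0.05, covariates for the clock score and the share of weak genes, and leaving out the 9 libraries or each mouse. The methods were tested on simulated data. Figures were drawn with matplotlib 3.10.9, and relations computed with scipy 1.17.1 in Python 3.11.15. Amino acid sequences and a promoter window of Hsd17b4 were not used here. The split of the mice by clock score was chosen after the scores were seen.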

Additional observations from a re-analysis of the deposited data

Results flagged for a closer look

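In the chow group, the only group of a size that Dixon's test was applied to, 31 sets of values were tested and 3 held a mouse that stood apart, where chance alone gives about 1 in 20. Ppargc1a in chow mouse 6 was at 17.41 CPM, with the next mouse at 10.79 CPM. The same mouse had the lowest Cat, at 2146 CPM, with the next at 2447 CPM. It also had the lowest Ehhadh, Acaa1a, Acaa1b, Pex11a and Bdh1 on chow, none of which stood apart. The library of chow mouse 6 was among the 9 that lacked weak genes, with 24.4% of them without a count. The part of this in its values was not tested. Aacs in chow mouse 9 was at 181.8 CPM, with the next at 103.6 CPM.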

How the results depend on the processing

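Of 112 member values per comparison over 14 alternatives, 102 (WTD against chow), 98 (atorvastatin against WTD) and 103 (atorvastatin against chow) kept direction and side of the threshold. Scaling to hepatocyte markers turned most others. For WTD against chow it gave 0.16 for Ppara, 0.62 for Ppargc1a, 0.20 for Acaa1a, 0.47 for Acaa1b, 0.28 for Hsd17b4, 0.26 for Pex11a, 0.59 for Bdh1, 0.17 for Acadm, 0.045 for Cat, 0.64 for Lpin1 and 0.42 for Rxra. For atorvastatin against WTD it gave -0.10 for Ppara, -0.059 for Ppargc1a, -0.19 for Ehhadh, -0.34 for Acaa1a, -0.27 for Acaa1b, -0.16 for Hsd17b4, -0.13 for Pex11a, -0.14 for Bdh1, -0.26 for Acadm, -0.073 for Baat, -0.11 for Cpt1a, -0.27 for Cyp4a14, -0.28 for Ech1, -0.0082 for Pex11g, -0.057 for Phyh, -0.063 for Pxmp4 and -0.067 for Rxra. For atorvastatin against chow it gave 0.062 for Ppara, 0.20 for Acaa1b, 0.12 for Hsd17b4 and 0.12 for Pex11a. The construction of this scaling, which holds the falling hepatocyte markers level, sets these shifts. Acaa1a against WTD, near 0, was -0.031 with DESeq2 and with RLE scaling, -0.027 with at least 10 counts and -0.013 with upper-quartile scaling. Bdh1 against chow was -0.0076 with upper-quartile scaling and -0.0025 with only the groups compared. Without the 9 libraries Cpt1a on WTD was -0.0060, and the Acaa1b share differed by 2.95 points (WTD against chow) and -0.049 points (atorvastatin against WTD); the cause was not tested.

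Members called with atorvastatin against WTD numbered 2 with limma-voom, 1 with hepatocyte scaling and 0 to 1 when leaving out a mouse. Of all 15574 genes limma-voom called 3118 and hepatocyte scaling 3669. Leaving out 1 mouse gave -0.012 to 0.11 for Ehhadh on WTD, -0.027 to 0.042 for Acaa1a and -0.025 to 0.25 for Cyp4a14 with atorvastatin against WTD, -0.0090 to 0.059 for Bdh1 against chow, and 2.72 to 3.85 points for the Acaa1b share against chow. No paired analysis was possible because the mouse numbers only name animals. Ppargc1a, with 66 to 412 counts per mouse, had the widest intervals.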
